A study of Mus musculus with 20 samples.

Results

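The 10 genes described here are products of neutrophils that differ in the stage of maturation at which they are made, and they were taken by name from the 52783 genes of the count table. The 5 early genes are Camp, Ltf, Ngp, Lcn2 and Cd177, and the 5 later genes are Ly6g, S100a8, S100a9, Retnlg and Mmp8. Each matched 1 mouse identifier, and none was chosen by a threshold on its values. RNA was sequenced from CD45+ (immune) and CD45- (non-immune) cells sorted from primary mammary tumours of female BALB/cJ mice aged 8 to 12 weeks, which had received 1000000 cells of the 66cl4 or the 67NR line in the mammary fat pad. Both lines come from the 4T1 mouse mammary carcinoma model, 66cl4 giving tumours that metastasise to the lungs and 67NR tumours that do not. Tumours were taken 21 to 26 days after injection, with 5 animals per tumour and 1 library per gate and animal, and no group was treated. Each tumour type is a single cell line, so the tumour comparison is a comparison of these lines. No library came from a tumour-free animal.

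Neutrophils fill their granules in sequence while they mature in the bone marrow. The azurophil granules come first, then the specific granules with lactoferrin, lipocalin 2 and cathelicidin, and then the gelatinase granules, and transcription of the early granule genes has largely stopped when the cell enters the blood. Mature neutrophils, by contrast, keep large stores of the alarmins S100A8 and S100A9, which pair as calprotectin and are ligands of the receptor TLR4. Ly6G, a surface protein with a lipid anchor, marks mouse neutrophils in cell sorting.

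Total counts per library were 12960000 to 28080314. Libraries were assigned by their titles, and for 66cl4 animals 5 and 6 the title and the recorded cell type name opposite gates. Ptprc, which encodes CD45, was 33.6 to 1932 times higher in the library titled CD45+ than in the library titled CD45- of the same animal, in 10 of 10 animals. Levels below are normalised counts, that is estimated counts divided by a size factor for each library. Values of single animals follow the order of the animal numbers, which is 3, 4, 5, 6 and 7 for 66cl4 and 1, 4, 5, 6 and 7 for 67NR. In bulk RNA, fewer cells of a type and less RNA per cell cannot be told apart. In CD45+ cells Csf3r, the G-CSF receptor, had 8601 ± 2884 normalised counts in 66cl4 and 3196 ± 1009 in 67NR (SD, n = 5). This gene alone does not identify neutrophils, and the cells that carried the members were not identified.

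To show what stands in front of these genes, the 250 bases before the transcription start are given for the early genes Ltf, Ngp and Camp, whose levels did not follow those of the later genes, and for the later genes S100a8, S100a9 and Retnlg, which differed between the tumours. The sequences are those of RefSeq on build GRCm38.p6, written 5′ to 3′ on the strand of the gene. Capitals mark matches to TTGCNNAA, the core bound by C/EBP factors, which act at several steps of granulocyte maturation, and to GAGGAA, a core of PU.1 and other Ets factors, each searched on both strands.
Ltf, chr9:111019042-111019291, plus strand: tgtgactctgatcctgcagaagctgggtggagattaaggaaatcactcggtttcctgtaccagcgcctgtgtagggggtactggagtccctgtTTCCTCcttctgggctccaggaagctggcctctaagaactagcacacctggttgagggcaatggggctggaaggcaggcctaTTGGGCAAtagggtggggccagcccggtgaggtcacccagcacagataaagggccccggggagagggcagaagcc
Ngp, chr9:110419558-110419807, plus strand: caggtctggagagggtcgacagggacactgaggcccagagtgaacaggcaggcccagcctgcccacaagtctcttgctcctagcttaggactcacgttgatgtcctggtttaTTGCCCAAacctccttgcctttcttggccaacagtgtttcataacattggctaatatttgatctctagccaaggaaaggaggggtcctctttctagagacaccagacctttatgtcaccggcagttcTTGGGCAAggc
Camp, chr9:109849457-109849706, minus strand: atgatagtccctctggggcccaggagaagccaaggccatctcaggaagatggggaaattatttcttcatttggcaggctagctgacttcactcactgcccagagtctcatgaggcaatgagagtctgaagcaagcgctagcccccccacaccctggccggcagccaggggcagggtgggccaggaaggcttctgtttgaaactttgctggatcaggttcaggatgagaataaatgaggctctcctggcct
S100a8, chr3:90668821-90669070, plus strand: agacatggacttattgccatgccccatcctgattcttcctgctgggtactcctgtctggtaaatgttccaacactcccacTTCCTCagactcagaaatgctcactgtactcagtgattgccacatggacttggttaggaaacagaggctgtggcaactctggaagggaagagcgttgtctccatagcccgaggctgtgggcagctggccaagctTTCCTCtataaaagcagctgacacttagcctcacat
S100a9, chr3:90695722-90695971, minus strand: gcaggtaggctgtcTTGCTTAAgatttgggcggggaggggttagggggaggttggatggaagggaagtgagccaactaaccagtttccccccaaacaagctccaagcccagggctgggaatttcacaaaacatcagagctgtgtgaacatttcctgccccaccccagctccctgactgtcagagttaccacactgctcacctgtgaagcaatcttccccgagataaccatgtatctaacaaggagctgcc
Retnlg, chr16:48872358-48872607, plus strand: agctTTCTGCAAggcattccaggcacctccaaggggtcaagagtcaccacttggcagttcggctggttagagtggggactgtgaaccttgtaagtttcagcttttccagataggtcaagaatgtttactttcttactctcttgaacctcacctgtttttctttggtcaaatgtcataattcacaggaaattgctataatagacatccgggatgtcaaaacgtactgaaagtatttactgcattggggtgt

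The C/EBP core was found in this window for 7 of the 10 genes, namely Ltf, Ngp, Lcn2, Ly6g, S100a9, Retnlg and Mmp8, and it was present in 9.56% of all 32851 windows of the same length. GAGGAA was found for 6 of the 10, namely Ltf, Lcn2, Cd177, Ly6g, S100a8 and Mmp8, against 23.3% of all windows. Ly6g has 2 start windows and was counted if either matched, whereas the shares are per window. Only 1 of its windows held the C/EBP core. Both were present for 4 members, and Camp held neither. No match of one motif overlapped a match of the other. S100a8 and S100a9 lie near each other on chromosome 3, and Camp, Ngp and Ltf all lie on chromosome 9. Ngp had 2 matches to the C/EBP core, the nearer ending 4 bases before the start. The C/EBP core was in the window of 3 of the 5 early and 4 of the 5 later genes, and GAGGAA in that of 3 of each. A match describes the letters only.

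Within CD45+ cells the alarmins were by far the most abundant of the 10 transcripts, and Ltf and Camp were the least abundant. Corrected for transcript length (TPM, with the longest protein-coding transcript of each gene), S100a9 reached a mean of 7845 ± 3066 TPM in 66cl4 and 1845 ± 1295 TPM in 67NR (SD, n = 5). S100a8, its partner, reached 4386 ± 1630.5 and 988 ± 691 TPM. Retnlg, a secreted resistin-like protein, followed with 801 ± 416 and 144 ± 133 TPM. Lcn2, with 65.2 ± 29.8 and 21.7 ± 17.5 TPM, and Mmp8, the neutrophil collagenase, with 40.2 ± 15.8 and 17.6 ± 10.9 TPM, came next and lay within each other's spread. The order of these 5 genes was the same in both tumours. The other 5 genes lay between 0.458 and 6.34 TPM in 66cl4 and between 1.18 and 4.27 TPM in 67NR, with Camp lowest in both. Within 66cl4, the means of Ly6g and Cd177, 6.34 and 6.31 TPM, did not differ beyond their spread (SD 1.44 and 3.38). The counts of S100a9 and S100a8 kept a narrow ratio, 1.78 to 1.99 in the 66cl4 and 1.87 to 2.13 in the 67NR CD45+ libraries.

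**Figure D1:**
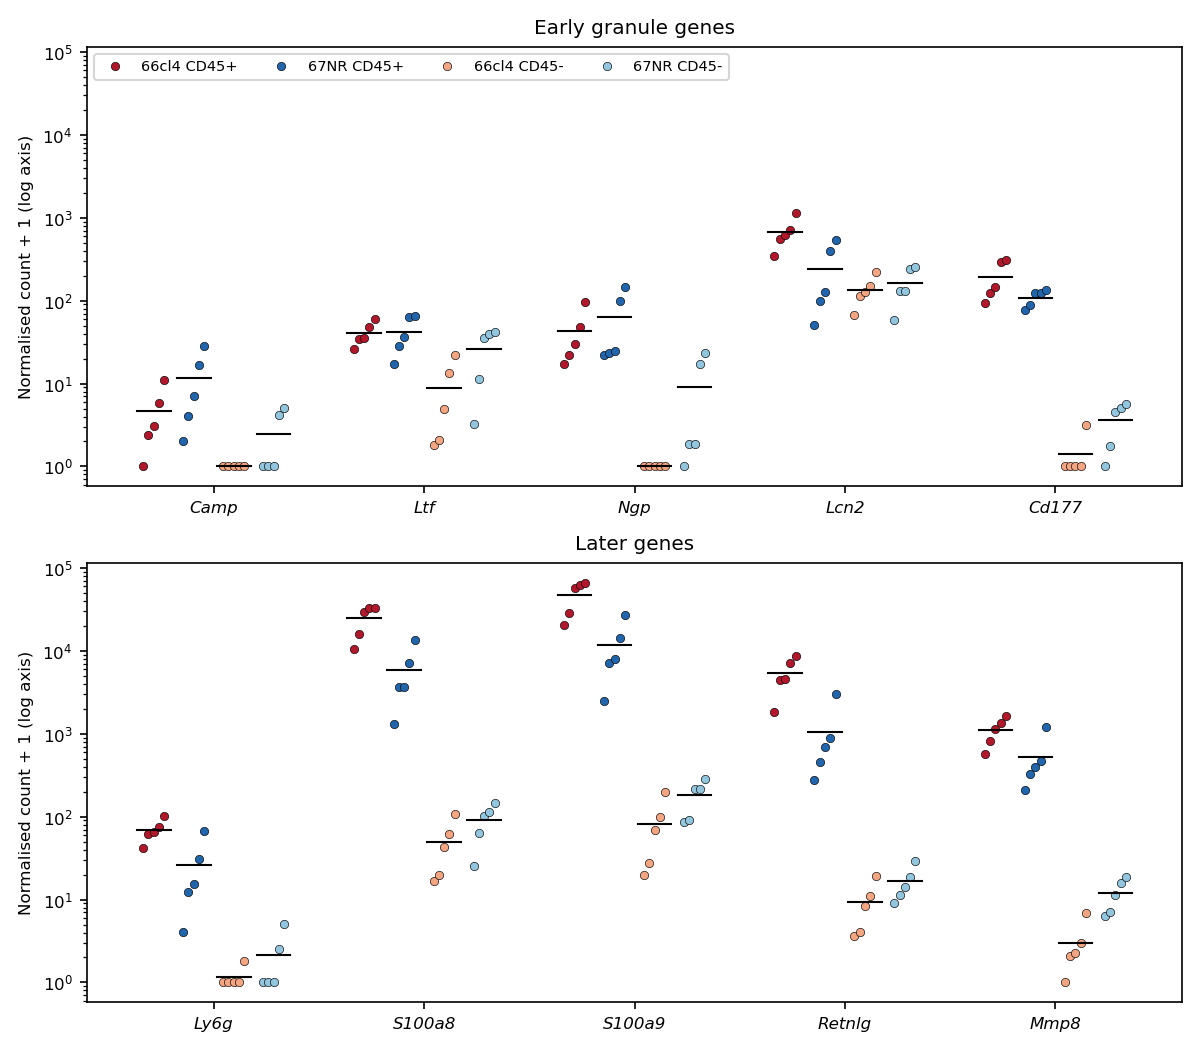
Normalised counts plus 1 on a log axis for the 5 early genes (upper panel) and the 5 later genes (lower panel), with 1 point per library, sorted by value, and a line at the mean of the 5 libraries of a group. The CD45+ points of S100a8 reach from 10703 to 33213 in 66cl4 and from 1314 to 13406 in 67NR, whereas those of Ltf reach from 25.3 to 59.2 and from 16.5 to 63.7. Lcn2 and Ltf keep CD45- points close to their CD45+ points in 67NR.

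The first comparison asks whether the immune cells of the metastatic and the non-metastatic tumours differ in these transcripts. The alarmins and Retnlg were 4.02 to 5.05 times higher in the mean of 66cl4 than of 67NR CD45+ cells. The early genes Ltf, Ngp, Lcn2 and Cd177 and the later genes Ly6g and Mmp8 did not pass the test. Whether early and later genes differed from each other was not tested. Of the 10 genes, 9 passed the filter on low counts, and 3 were called, all higher in 66cl4. A gene was called with a Benjamini-Hochberg adjusted p under 0.05 in edgeR's quasi-likelihood test and an absolute log2 fold change over 1. Of all 14676 genes tested, 11.8% were called and 5.01% were called higher in 66cl4.

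S100a8 had 29892, 16241, 33212, 33213 and 10703 normalised counts in the 66cl4 CD45+ libraries. In the 67NR CD45+ libraries it had 13406, 7237, 3702, 3644 and 1314. The groups overlapped, since 67NR animal 1 lay above 66cl4 animal 7, and 4 of the 5 66cl4 libraries were above all of 67NR. The means were 24652 ± 10480.3 and 5861 ± 4719 (SD, n = 5 each), a log2 fold change of 2.05 ± 0.58 (SE) with an edgeR adjusted p of 0.0289.

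S100a9 followed its partner, with 57282, 28946, 66146, 62228 and 20841 normalised counts in 66cl4. The 67NR libraries held 26880.5, 14183, 7891, 7107 and 2461. Animal 7 was the lowest of each tumour, as for S100a8, and again 4 of the 5 66cl4 libraries stood above every 67NR library. The log2 fold change was 1.99 ± 0.59 (SE), with an edgeR adjusted p of 0.0349.

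Retnlg had 8792, 4479, 7086, 4649 and 1833 normalised counts in 66cl4 CD45+ cells and 3017, 889, 685, 452 and 274 in 67NR. Only animal 1 of 67NR reached into the range of 66cl4, above its animal 7. The mean of 5368 ± 2668 in 66cl4 was 5.05 times that of 1063 ± 1117 in 67NR (SD, n = 5), and the log2 fold change was 2.32 ± 0.67 (SE; edgeR adjusted p = 0.0311). None of the 10 genes separated the 2 CD45+ groups without overlap, compared with 15.1% of all genes tested.

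The calls of these 3 genes depended on the libraries. No member was called without 66cl4 animal 3 or 5, without 67NR animal 4, 5 or 6, without both 66cl4 animals 5 and 6, or with no filter on low counts, and 6 were called without 67NR animal 1 (Lcn2, Ly6g, Mmp8 and the same 3). S100a9 was not called without 66cl4 animal 6, and Cd177 was called without 66cl4 animal 7. Over the 17 alternatives, the edgeR or DESeq2 adjusted p ranged from 0.00374 to 0.112 for S100a8, from 0.0057 to 0.13 for S100a9 and from 0.000377 to 0.0847 for Retnlg, and the log2 fold change of each stayed at 1.59 or more. DESeq2 called 5, adding Ly6g and Mmp8.

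Ly6g and Mmp8, the remaining later genes, had values above 0 that did not pass the test. Ly6g had 75.1, 64.0, 60.7, 102 and 41.4 normalised counts in 66cl4 CD45+ cells and 67.1, 29.7, 11.2, 14.4 and 3.09 in 67NR. The 67NR animal 1 lay within the 66cl4 range and the other 4 lay below all of it. Its log2 fold change was 1.48 ± 0.60 (SE; edgeR adjusted p = 0.103). The counts of Ly6g were not whole by over 0.01 in 7 of 20 libraries, so that some of its reads were divided with similar genes by the estimation and its level is uncertain. Mmp8 had 1662, 810.3, 1338, 1144 and 575 normalised counts in 66cl4 and 1200.3, 467, 395, 328 and 211 in 67NR, with a log2 fold change of 1.08 ± 0.46 (SE; edgeR adjusted p = 0.125).

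Of the early genes, 4 were tested and their log2 fold changes ran from -0.55 to 1.46, with overlapping 95% intervals. Lcn2, which binds bacterial siderophores and is also made by epithelia, had 1128, 561, 705, 612 and 348 normalised counts in 66cl4 CD45+ cells and 535, 400.1, 98.6, 127 and 50.4 in 67NR. It had the same overlap as the alarmins, with 4 of the 5 66cl4 libraries above all of 67NR, and a log2 fold change of 1.46 ± 0.61 (SE; edgeR adjusted p = 0.113). Cd177, a surface protein that binds PECAM1 and is stored in specific granules, had 309, 124, 295, 144 and 93.0 in 66cl4 and 123, 75.8, 87.4, 132 and 122 in 67NR. Animals 3, 5 and 6 of 66cl4 stood above all of 67NR and the other 2 within its range, and the log2 fold change was 0.84 ± 0.33 (SE; edgeR adjusted p = 0.0876).

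Ltf, the iron-binding lactoferrin, had 33.4, 34.4, 47.2, 25.3 and 59.2 normalised counts in 66cl4 CD45+ cells. In 67NR it had 35.9, 63.7, 63.0, 27.6 and 16.5. The 66cl4 values lay wholly within the 67NR range, and the log2 fold change was -0.04 with a 95% interval of -0.89 to 0.80 (edgeR adjusted p = 0.954). Its sign turned with the setting, reaching 0.17 without 67NR animal 4.

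Ngp, a granule protein related to the cathelicidins and cystatins, had 29.2, 46.8, 16.4, 21.04 and 95.5 normalised counts in 66cl4 and 98.3, 145, 21.3, 24.0 and 22.6 in 67NR. High values stood in animal 7 of 66cl4 and in animals 1 and 4 of 67NR. The log2 fold change was -0.55 with a 95% interval of -2.04 to 0.93 (edgeR adjusted p = 0.605), and it was 0.04 without 67NR animal 4. Camp, the cathelicidin precursor, did not pass the filter. It had estimated counts of 1, 5, 0, 2 and 12 in 66cl4 and 10, 25, 3, 5 and 1 in 67NR, and the normalised means of 3.68 ± 4.01 and 10.6 ± 10.95 (SD, n = 5) were compared in an exact two-sided permutation test (p = 0.23), which with 5 against 5 libraries cannot go below 0.00794.

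**Figure D2:**
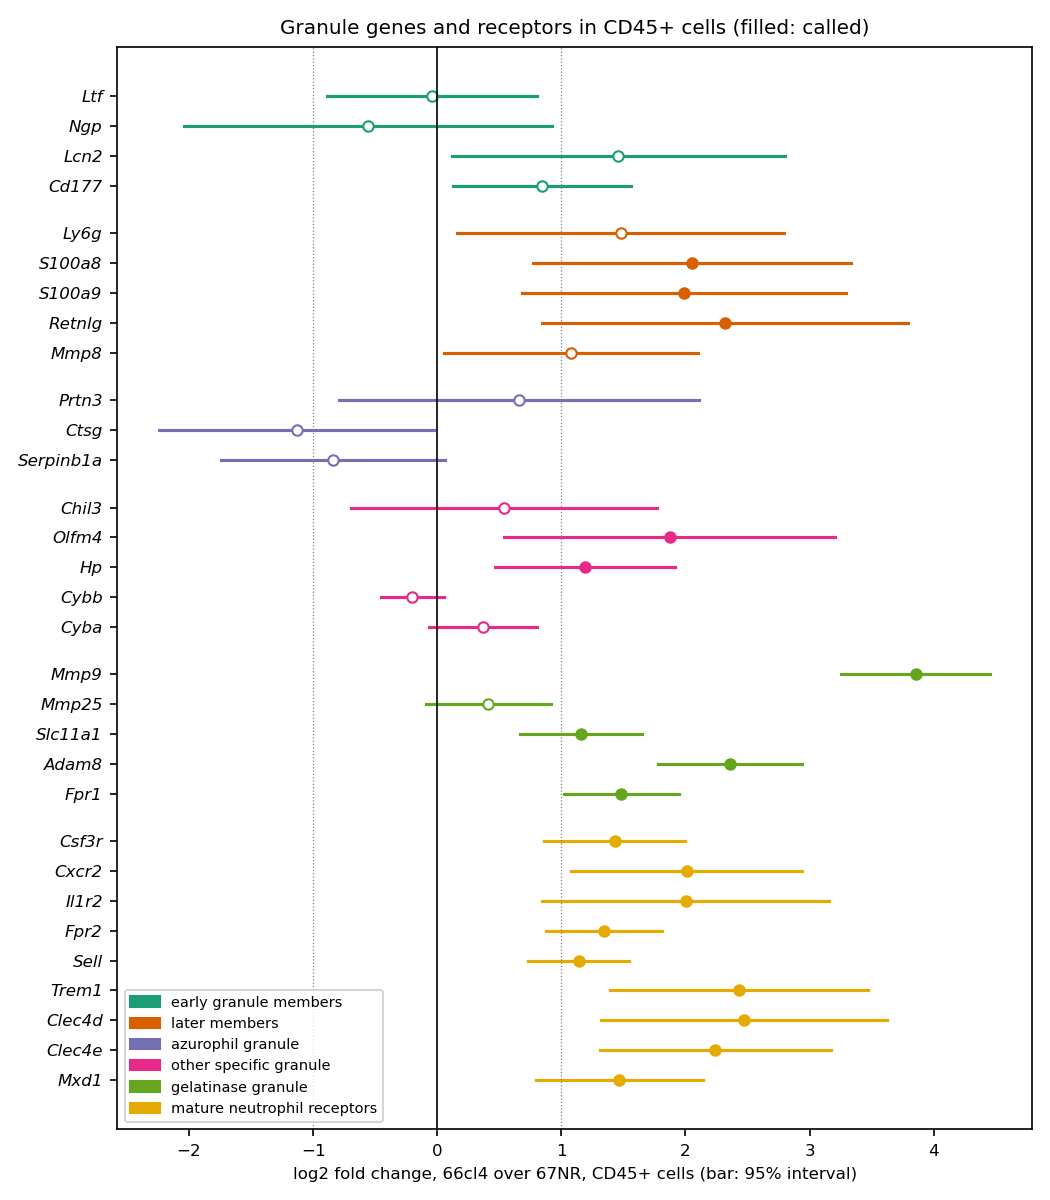
The log2 fold change of 66cl4 over 67NR in CD45+ cells with its 95% interval from edgeR, for the members that passed the filter and for 4 further lists of neutrophil genes. Filled points passed both thresholds, and dotted lines mark a log2 fold change of 1 in either direction. All 9 mature receptors and regulators are filled, as are S100a8, S100a9 and Retnlg, while the intervals of Ltf and Ngp cover 0.

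The receptors and regulators of mature neutrophils were called higher in 66cl4 CD45+ cells throughout this list, 9 of 9. The median of their log2 fold changes was 2.00, and that of all genes tested was 0.01. Clec4d (2.47 ± 0.52, SE), Trem1 (2.43 ± 0.47) and Clec4e (2.24 ± 0.42), which are activating receptors, led the list. Cxcr2, the receptor for neutrophil chemokines, had a log2 fold change of 2.01 ± 0.42, and Csf3r 1.43 ± 0.26. Csf3, the ligand of Csf3r, had at most 11 estimated counts in any CD45+ library and was not tested.

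Of the gelatinase granule list, 4 of 5 were called higher, led by the gelatinase Mmp9 at 3.86 ± 0.28 and Adam8 at 2.36 ± 0.26 (log2 fold change ± SE). In the list of other specific granule genes, 2 of the 5 tested were called higher, Olfm4 at 1.87 ± 0.60 and Hp, haptoglobin, at 1.19 ± 0.33. Of the 6 genes of the azurophil list, 3 passed the filter, Prtn3 with 0.66 ± 0.66, Serpinb1a with -0.84 ± 0.41 and Ctsg, cathepsin G, with -1.13 ± 0.51. Their edgeR adjusted p lay between 0.136 and 0.521. Serpinb1a and Ms4a3 in this list do not encode granule proteases. The medians were 1.48 for the gelatinase, 0.54 for the other specific and -0.84 for the azurophil list, and the difference between the lists was not tested. The azurophil median is the value of Serpinb1a, while Prtn3 and Ctsg had opposite signs.

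Of the 6 genes of the azurophil list, 3 were far higher in 1 library than in the other CD45+ libraries. Mpo, myeloperoxidase, had 181 normalised counts in 67NR CD45+ animal 1 and at most 4.17 in the other 9 CD45+ libraries. Elane, neutrophil elastase, had 82.7 there, 8.79 in 67NR animal 4 and at most 1.39 in the others. Ms4a3, picked after its values were seen, had 53.1 there and at most 1.39 in the others. Prtn3 and Ctsg did not set this library apart, with 74.9 and 161 there against up to 69.3 and 131 in others, and Serpinb1a was at 398 to 572 throughout 67NR. The eosinophil markers Prg2 and Epx, also picked after their values were seen, had 65.6 and 15.6 there. They had at most 4.17 and 2.78 in the other CD45+ libraries. Siglecf and Ccr3 did not set it apart, with up to 102 and 710 in other CD45+ libraries. The 67NR animal 1 also had the highest Lcn2, Ly6g, S100a8, S100a9, Retnlg and Mmp8 of 67NR. The part of these transcripts in the members' values was not tested.

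Among transcription factors of granulocytes, Cebpe, which is needed for specific granules, had 108, 44.0, 104, 65.2 and 44.8 normalised counts in 66cl4 CD45+ cells. In 67NR it had 12.5, 15.4, 11.2, 4.79 and 15.4. The groups did not overlap, and the log2 fold change was 2.62 ± 0.38 (SE; edgeR adjusted p = 0.000734). Cebpb was called higher at 1.04 ± 0.22 and Gfi1, a transcriptional repressor that neutrophil development needs, was called lower at -1.03 ± 0.30, while Cebpa and Spi1, which encodes PU.1, were not called.

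Of the partners and receptors of the members, 2 of 8 tested were called in CD45+ cells. These were Cd14, a co-receptor of TLR4, at 1.96 ± 0.28 and Itgam, the CD11b subunit, at 1.18 ± 0.22 (log2 fold change ± SE), both higher in 66cl4. Tlr4 itself had 0.77 ± 0.23, short of the fold threshold. Of the 6 other S100 genes, only S100a16 was called, lower in 66cl4 at -4.12 ± 0.56, and S100a11 had 0.81 ± 0.20, short of the fold threshold. In the list of stefins and small secreted proteins, 3 of 10 were called higher, among them Stfa2l1 at 2.23 ± 0.69 and Asprv1 at 1.81 ± 0.53.

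Markers of other cells moved with the tumour as well. The 3 mast cell markers were called lower in 66cl4 CD45+ cells, with summed levels of 992 to 3154 normalised counts against 16185 to 22570 in 67NR. The 3 NK cell markers were called lower, at 444 to 1739 against 1057 to 11399. The 4 erythroid genes tested were called lower, at 70.7 to 105 against 123 to 956. Of the 6 macrophage markers only Adgre1 was called, lower, and their sum was 42876 to 67335 against 70864 to 107393. Of the 4 epithelial markers, Krt8 and Krt18 were called higher, and the sum was 623 to 944 against 261 to 320. Ly6c2 was called lower and Vcan higher among the 4 monocyte markers, with a sum of 33004 to 61369 against 24636 to 39992. The 3 T cell markers had edgeR adjusted p of 0.23 to 0.72 and the 4 B cell markers of 0.103 to 0.262. Dcn of the 4 fibroblast and Kdr of the 4 endothelial markers were called lower, and Siglecf of the 4 eosinophil markers higher. The part of these cells in the members' values was not tested.

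The members did not all have the same highest and lowest animal. In 66cl4 CD45+ cells, animal 7 had the lowest Lcn2, Cd177, Ly6g, S100a8, S100a9, Retnlg and Mmp8 and at the same time the highest Camp, Ltf and Ngp. In 67NR, animal 1 was highest for Lcn2 and the 5 later genes and animal 4 for Camp, Ltf and Ngp. Animal 7 of 67NR was lowest for 8 of the 10. Its S100a8 was 10.2 times, and its Retnlg 11.03 times, below that of animal 1. Camp, Ltf and Ngp thus shared their highest animal in each tumour, and it was never the animal highest for a later gene. For Ltf in 67NR this rests on 63.7 normalised counts in animal 4 against 63.0 in animal 5. For Camp in 66cl4 it rests on at most 12 estimated counts. The early gene Cd177 was highest in 67NR animal 6 and lowest in animal 4.

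**Figure D3:**
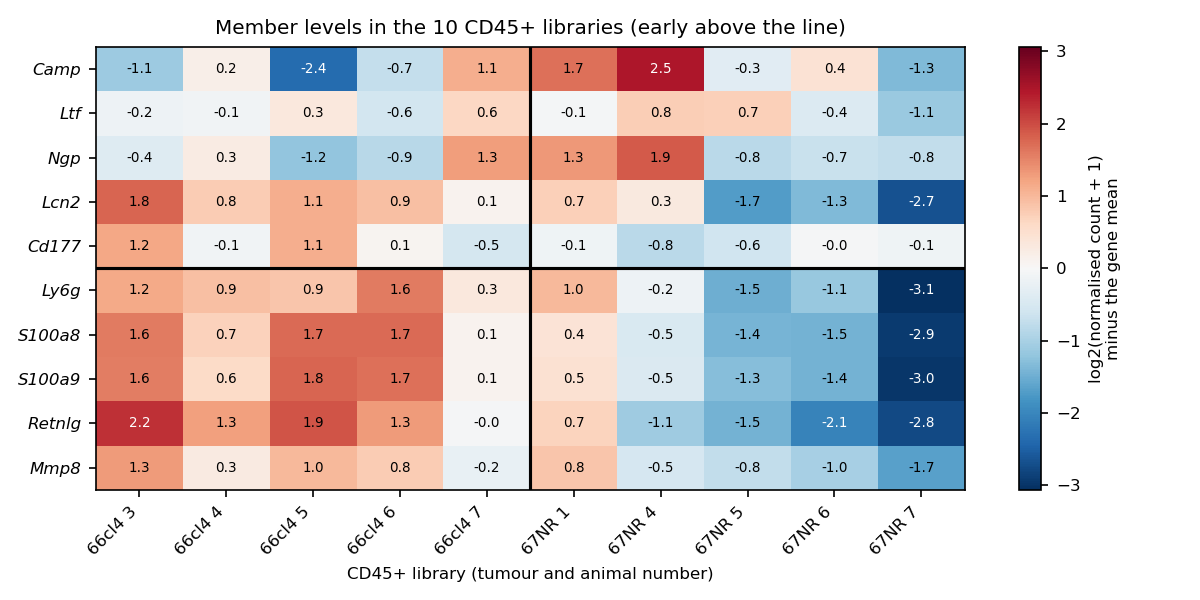
Each member's log2(normalised count + 1) in the 10 CD45+ libraries after its own mean was subtracted, with animal numbers under the columns, the early genes above the horizontal line and the tumours parted by the vertical line. Lcn2 follows the rows of the later genes, falling to -2.66 in 67NR animal 7, while Camp and Ngp are highest in 67NR animal 4, at 2.47 and 1.87.

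The likeness of these patterns was measured as the root mean square difference of such centred log2 levels over the 10 CD45+ libraries, as a description without a test. Lcn2 differed by 0.36 from the average of the later genes and by 1.03 from that of the early genes, to which it contributes itself. Among genes outside the list, Chil1, a chitinase-like protein, was most like the later average, at 0.22. Rdh12 (0.26), G0s2 (0.27), which inhibits the breakdown of stored fat, Il1f9 (0.30), an interleukin-1 family cytokine, and Cxcr2 (0.32) came next, followed by Mrgpra2b, Hcar2 and the chemokine Cxcl2, at up to 0.33. The median over all genes tested was 1.43. The genes most like the early average were Gm48401 (0.28), Kif21a (0.29), Sgtb (0.30), Nfat5 (0.31) and Lamc1 (0.32), with Nxpe4 (0.34) and Ampd3 (0.35) further off, against a median of 0.73. The early average is a mixture, from which Ltf differed by 0.54, Ngp by 0.64 and Camp by 1.06.

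Set against Csf3r, the medians of Camp, Ltf, Ngp and Cd177 were smaller in 66cl4 than in 67NR, and those of Lcn2, Ly6g, S100a8, S100a9 and Retnlg were larger, as a description without a test. The ranges of the 2 tumours overlapped for every member. Lcn2 was at 5.59% to 9.33% in 66cl4 and 2.08% to 13.03% in 67NR, and Ly6g at 0.564% to 1.56% and 0.128% to 1.36%. Retnlg was at a median of 65.8% of the Csf3r count in 66cl4 CD45+ cells and 22.5% in 67NR. S100a8 was at 238% and 144%. Mmp8 was at 12.4% and 13.01%, and Ly6g at 0.664% and 0.569%. Ngp was at 0.321% and 0.948%, and Ltf at 0.439% and 1.09%. The log2 ratio of the summed early to the summed later normalised counts was -6.30 ± 0.49 in 66cl4 and -5.17 ± 0.56 in 67NR CD45+ cells (SD, n = 5), and its ranges, -6.98 to -5.81 and -5.78 to -4.32, came close to each other. They overlapped when the ratio was formed from TPM (-8.03 to -6.96 and -7.03 to -5.99) or from geometric means (-6.55 to -4.43 and -4.88 to -3.43). Lcn2 and the alarmins make up most of these sums, the members were chosen with results known, and the ratio has no test.

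The second comparison sets the gates of a tumour against each other and asks how far each transcript was restricted to immune cells. In 66cl4 tumours, all 9 members that passed the filter were called higher in CD45+ cells, where 44.4% of all 14916 genes tested were called and 23.9% were called higher. The groups of all 9 were apart without overlap, as were those of 61.4% of all genes tested, 31.4% with CD45+ cells higher. Ngp, Ly6g, Cd177 and Mmp8 had 0, 1, 2 and 12 counts in all in the CD45- libraries, and Retnlg and Ltf had 46 each. These genes passed the filter only through the CD45+ group, which largely set the direction of their calls. S100a8, S100a9, Retnlg and Mmp8 were 502 to 647 times higher in the mean, whereas Lcn2 and Ltf were only 4.96 and 5.07 times higher. The 9 calls held under each of the 17 alternatives. For Ngp, Ly6g, Cd177, Mmp8, Retnlg and Ltf these all rest on the same low CD45- counts.

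Retnlg, for example, had 2.65, 3.12, 18.3, 7.44 and 9.98 normalised counts in 66cl4 CD45- cells, with a log2 fold change between the gates of 9.26 ± 0.58 (SE; edgeR adjusted p = 4.63e-08). Since Retnlg passed the filter only through the CD45+ group, the direction of this call was largely set in advance. S100a8 had 15.9, 18.7, 107, 42.5 and 60.9, with 8.92 ± 0.64 (edgeR adjusted p = 1.39e-07). S100a9 had 26.5, 18.7, 196, 69.0 and 98.8, and Mmp8 between 0 and 5.83. In 66cl4 CD45- cells, animal 5 was highest for each of these 4 genes. It had 138 normalised counts of Ptprc, where the other 4 ranged from 10.6 to 161.

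Ngp and Camp were at 0 in all 5 66cl4 CD45- libraries, so that a share of up to 1.07e-05 to 2.30e-05% of a library's counts was allowed by counting error alone. Set against 3 counts in each library, Ngp was at least 14.4-fold higher in CD45+ cells and Camp at least 1.27-fold (exact two-sided permutation test, p = 0.0476). The permutation did not pair the 2 gates of an animal. Cd177 had 2 counts in all in the CD45- libraries, a count ratio of 504 with a 95% interval of 139 to 4171. Ly6g had 1 count in all, a ratio of 368 with an interval of 65.6 to 14571.

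Lcn2 stood out by the level it kept outside the immune gate. Its 66cl4 CD45- libraries had 220.3, 127, 112, 149.8 and 66.9 normalised counts, 20.2% of the CD45+ mean, where Ptprc was at 0.385% and the later genes were at 0.155% to 0.242%. The log2 fold change between the gates was 2.28 ± 0.34 (SE; edgeR adjusted p = 7.30e-05). Ltf had 3.98, 12.5, 0.832, 1.06 and 20.96 in the same libraries, 19.7% of the CD45+ mean, with 2.27 ± 0.60 (SE; edgeR adjusted p = 0.00434). Like Retnlg, Ltf passed the filter only through the CD45+ group.

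In 67NR tumours the same genes had smaller differences between the gates, which the interaction test given last compares. Of 8 members tested, 6 were called higher in CD45+ cells, where 39.8% of 15063 genes were called and 20.2% were called higher. Cd177, Ngp and Mmp8, with 15, 47 and 64 counts in all in the CD45- libraries, passed the filter through the CD45+ group. That group largely set the direction of their calls. S100a8 had 145, 101, 24.6, 113 and 63.4 normalised counts in the CD45- cells, and all its CD45+ libraries lay above these. The gates did not overlap for 5 of the 10 genes, S100a8, S100a9, Retnlg, Mmp8 and Cd177, against 55.5% of all genes tested, 27.5% with CD45+ cells higher. The log2 fold changes were 6.04 ± 0.71 for S100a8, 6.04 ± 0.69 for S100a9, 6.09 ± 0.74 for Retnlg, 5.57 ± 0.57 for Mmp8 and 5.32 ± 0.46 for Cd177 (SE). Each of these 5 was called under every one of the 16 alternatives, which for Mmp8 and Cd177 rest on the same low CD45- counts. The CD45- levels were 1.47% to 2.41% of the CD45+ levels for these 5 genes, and 1.22% for Ptprc.

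Ngp was called at 2.94 ± 0.97 (SE; edgeR adjusted p = 0.0181), but not with the animal as a block (edgeR adjusted p = 0.070), with no filter or without CD45+ animal 4. Its CD45- levels were 0.877, 0, 0.878, 22.7 and 16.4, so that animals 6 and 7 carried nearly all of it. The same animals held all the Camp, 4 estimated counts each, and all the Ly6g of the 67NR CD45- cells. Camp and Ly6g did not pass the filter, and exact two-sided permutation tests gave p = 0.0794 and 0.0159. Ly6g was called without CD45+ animal 7 or any single CD45- library, with no filter, and in a fit of all 20 libraries.

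Lcn2 and Ltf were not called in 67NR. Lcn2 had 253, 129, 129, 239.8 and 58.3 normalised counts in 67NR CD45- cells, 66.8% of the CD45+ mean, and was higher in CD45+ cells in only 2 of 5 animals. Its log2 fold change was 0.59 with a 95% interval of -0.76 to 1.94 (edgeR adjusted p = 0.419). Ltf had 41.2, 2.25, 38.6, 34.4 and 10.2, 61.3% of the CD45+ mean, with 0.71 and an interval of -0.65 to 2.07 (edgeR adjusted p = 0.33). In both tumours Lcn2 and Ltf were thus the least gate-restricted of the members tested.

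**Figure D4:**
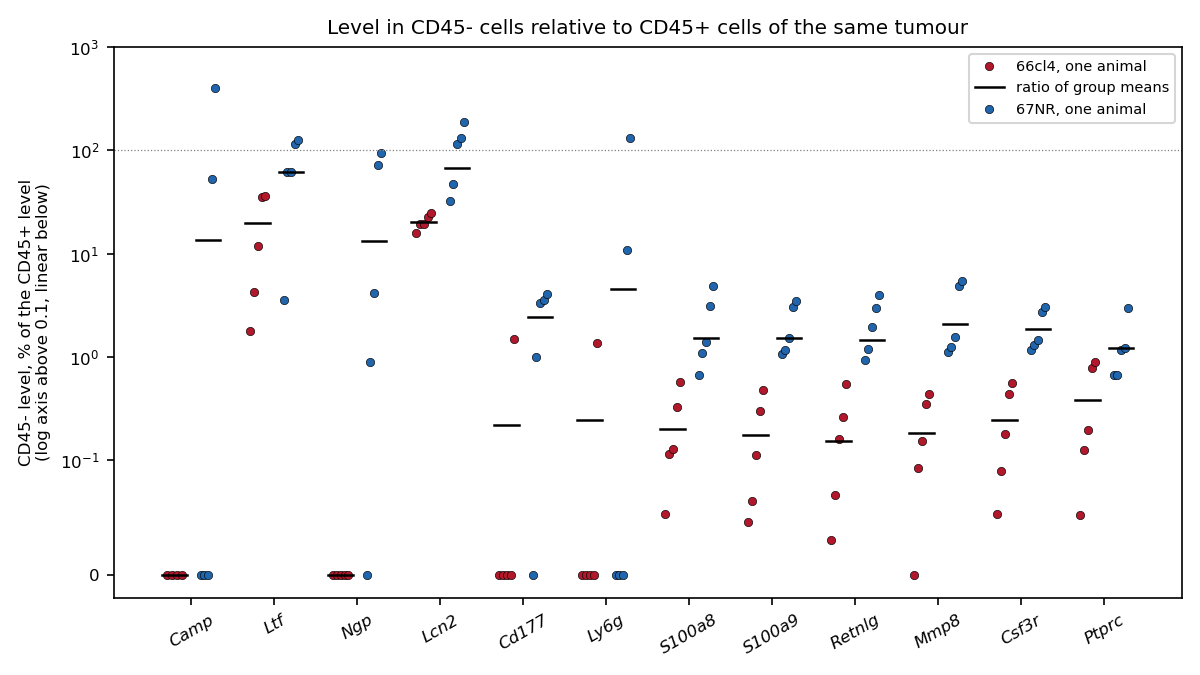
The level in CD45- cells as a percentage of the level in CD45+ cells of the same animal (points) and of the group mean (lines), for the members, Csf3r and Ptprc, on an axis that is logarithmic above 0.1 and linear below. An animal with no count in CD45+ cells has no point. Lcn2 and Ltf reach 66.8% and 61.3% of the CD45+ mean in 67NR and 20.2% and 19.7% in 66cl4, while S100a8, S100a9 and Retnlg stay near Csf3r and Ptprc.

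The third comparison concerns the CD45- cells of the 2 tumours. No member was called by edgeR, of 5 tested, where 32.2% of 14844 genes were called. None of the 5 had an unadjusted p under 0.05, and DESeq2 called 0. The groups of none of the 10 were apart, compared with 52.9% of all genes tested. The fitted values of the 5 were below 0, where 49.5% of all genes lay above 0, with -0.24 ± 0.39 for Lcn2, -0.83 ± 0.56 for S100a8, -0.86 ± 0.49 for Retnlg, -1.10 ± 0.62 for S100a9 and -1.60 ± 0.81 for Ltf (log2 fold change ± SE). Csf3r was called lower in 66cl4 at -1.43 ± 0.52 (edgeR adjusted p = 0.0267). Without 66cl4 CD45- animal 5, S100a8, S100a9 and Retnlg were called lower in 66cl4, and without 66cl4 animal 7 or 67NR animal 4 Ltf was called lower. S100a9, Retnlg and Mmp8 were called lower without both 66cl4 animals 5 and 6. Ptprc had 10.6 to 161 normalised counts in the 66cl4 and 145 to 473 in the 67NR CD45- libraries, and the part of remaining CD45+ cells in these values was not tested.

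The members that failed the filter were compared by exact two-sided permutation tests of their normalised counts, whose smallest p with 5 against 5 libraries is 0.00794. Mmp8 had 0, 1.25, 5.83, 1.06 and 2.00 in 66cl4 and 14.9, 5.25, 6.15, 17.97 and 10.2 in 67NR CD45- cells (exact permutation p = 0.0159). Ngp was at 0 throughout 66cl4 and reached 22.7 in 67NR (exact permutation p = 0.0476). The exact p was 0.0873 for Cd177 and 0.444 for each of Camp and Ly6g. These are unadjusted p-values, from 9 such tests over all comparisons.

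For the receptors of the early proteins the CD45- cells of the tumours differed widely. Slc22a17, a receptor of lipocalin 2, was called lower in 66cl4 CD45- cells, at -1.77 ± 0.29 (log2 fold change ± SE; edgeR adjusted p = 0.000113). Lrp2, or megalin, which takes up lipocalin 2 and lactoferrin and was picked here after its values were seen, had 418, 211, 345, 336 and 424 normalised counts in 66cl4 and at most 1.02 in any 67NR CD45- library. Of this list 9 were tested in CD45- cells, 3 were called higher in 66cl4 and 2 lower.

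Whether the tumour difference itself depended on the gate was tested as an interaction over all 20 libraries. Of 9 members tested 5 were called, Mmp8 at 3.34 ± 0.89, Cd177 at 3.28 ± 1.08, Retnlg at 3.21 ± 0.97, S100a9 at 3.13 ± 0.85 and S100a8 at 2.92 ± 0.82 (difference of log2 fold changes ± SE), with edgeR adjusted p of 0.00523 to 0.0195. A gene was called here by the adjusted p alone, and of all 16453 genes tested 43.1% were called, 21.9% with a positive difference. For each of the 5 members the log2 fold change of 66cl4 over 67NR was larger in CD45+ than in CD45- cells. The value of Cd177 rests on 2 counts in the 66cl4 CD45- libraries and depends on the prior count of the fit. That of Mmp8 rests in part on 12 counts in the 66cl4 and 64 in the 67NR CD45- libraries. Mmp8 did not pass the filter of the CD45- comparison and was not called between the tumours in CD45+ cells. The values of Lcn2 (1.73 ± 0.74, edgeR adjusted p = 0.0642) and Ltf (1.58 ± 0.93, edgeR adjusted p = 0.176) did not pass, nor did Ly6g and Ngp.

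S100a8, S100a9, Retnlg and Mmp8 were called under each of the 26 alternatives of the interaction. For Mmp8 all of these rest on the same low CD45- counts. Cd177 was not called without 66cl4 CD45- animal 4 or 67NR CD45- animal 6. Without single 67NR libraries further members were called, Lcn2 and Ly6g without CD45+ animal 1, Lcn2 and Ngp without CD45+ animal 4, and Ngp without CD45- animal 1, 4 or 5. The interaction uses the same libraries as the comparisons above and is not independent of them.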

How the data were processed

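RNA from CD45+ and CD45- cells of 10 animals was sequenced in 20 libraries. The authors trimmed reads with fastp 0.20.0, quantified transcripts with Salmon 1.3.0 and summarised them to genes with tximport 1.14.0, after demultiplexing with bcl2fastq 2.2.20, and deposited the estimated counts of 52783 genes, of which 51492 had a symbol in the gene table used here. The build named in the sources is a human one, so no coordinate was taken from it. Between 15.1% and 18.0% of a library's values were not whole, and they were rounded.

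Total counts were 12960000 to 28080314, and intervals and floors of 3 counts cover counting error only. Each library of a group came from its own animal. Genes were kept by filterByExpr (minimum count 10, minimum total 15) and tested in each comparison with edgeR 4.0.16 (TMM, robust quasi-likelihood, with limma 3.58.1 in R 4.3.3), with DESeq2 1.42.0 as an alternative. P-values were adjusted over all genes tested by Benjamini and Hochberg. Normalised counts used DESeq2 size factors. TPM used the longest protein-coding transcript of the reference annotation, and 1291 genes, with 2.58% of counts, had none. Python 3.11.15, pandas 2.3.3 and matplotlib 3.10.9 drew the figures. The scripts were tested on simulated data.

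The members and the gene lists were chosen with earlier results of these data known. All members are named, from each further list at most 4 genes with the largest CD45+ change, and 8 named genes (Csf3, Csf3r, Cxcr2, Cebpe, Tlr4, Mpo, Elane and Mmp9) whatever their values. The 8 genes most like each average are named, except 1 that is not reported here. Both gates of a tumour share the animal, by the labels, with correlations of deviations from -0.00120 to 0.302, whereas animals of different tumours share only a number. No replicate pair was alike within sampling noise, the lowest chi-square per degree of freedom being 13.5.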

Additional observations from a re-analysis of the deposited data

Results flagged for a closer look

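In the 67NR CD45+ group, animal 1 lay far from the other 4 libraries for Retnlg, with 3017 normalised counts against 274 to 889, and for Mmp8, with 1200.3 against 211 to 467. The total count of 67NR CD45- animal 7 was 16917109, and those of the other 4 libraries were 21199064 to 22180348. These were 3 of 36 groups examined, and chance gives 1.8 for independent groups with normally distributed values. Genes measured in the same library are not independent, and the flags of Retnlg and Mmp8 come from the same library. The tumour difference was larger in CD45+ than in CD45- cells in the edgeR interaction test for Mmp8 by 3.34 ± 0.89 on the log2 scale (SE), for Cd177 by 3.28 ± 1.08, for Retnlg by 3.21 ± 0.97, for S100a9 by 3.13 ± 0.85 and for S100a8 by 2.92 ± 0.82. Mmp8 and Cd177 had only 12 and 2 counts in all in the 66cl4 CD45- libraries. The cause of these differences was not tested.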

How the results depend on the processing

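In CD45+ cells the number of members called between the tumours, 3 with edgeR, was 5 with DESeq2, 0 with no filter on low counts, 0 without 66cl4 animals 5 and 6, 5 with all 20 libraries in the fit, and 0 to 6 when single libraries were left out. With the replicate number as a block it was 6, but animals of different tumours share only a number (correlations 0.00345 to 0.0708 in CD45+ and -0.123 to 0.0171 in CD45- cells, 1 of 4 best matched by its own number in CD45+ cells). The log2 fold change of Ltf was 0.076 with the block and 0.032 without 66cl4 animals 5 and 6, and ranged from -0.26 to 0.17 when single libraries were left out, and that of Ngp from -1.13 to 0.043. In CD45- cells 1 member was called with no filter, 3 without 66cl4 animals 5 and 6, 3 with all 20 libraries, and 0 to 3 without single libraries. The interaction called 8 with DESeq2 and 6 with the animal as a block, which added Lcn2. The early to later log2 ratio was -7.40 (66cl4 CD45+), -6.51 (67NR CD45+), -0.52 (66cl4 CD45-) and -1.51 (67NR CD45-) from TPM. From geometric means it was -5.84 in 66cl4 CD45+, -3.96 in 67NR CD45+ and -1.17 in 66cl4 CD45- cells, where summed counts gave 0.38. The cause was not tested. Of the gate comparisons, the animal as a block changed only Ngp in 67NR. With 20 and 44 counts over 5 libraries, Camp was too shallow for the edgeR test in CD45+ cells.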

Other observations

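Some genes of the neutrophil lists that are no members also differed between the CD45- cells of the tumours. Itgb2, the integrin beta chain CD18, had 3204, 3423, 3646, 3251 and 3647 normalised counts in 66cl4 CD45- cells and 176 to 313 in 67NR CD45- cells. The groups were far apart, with a log2 fold change of 3.92 ± 0.16 (SE; edgeR), although Ptprc was at 10.6 to 161 in the 66cl4 libraries. Mmp9, the gelatinase, ranged between 574 and 931 normalised counts in the 66cl4 group and between 184 and 319 in the 67NR group of this gate, a log2 fold change of 1.72 ± 0.16 (SE). Cxcr2 had the opposite direction, lying between 96.9 and 138 in 66cl4 but between 402 and 681 in 67NR, with a log2 fold change of -1.95 ± 0.15 (SE). The cells that carried these transcripts were not identified.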
